A study of Mus musculus with 6 samples.

Results

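The genes described here are the machinery of apoptosis, 36 genes of 20236 measured. They were chosen by name: array probes annotated with a listed symbol, or with the older names Birc4 for Xiap and Pdcd8 for Aifm1. The list has 9 pro-survival genes, 25 pro-death genes, and 2 genes with parts on both sides (Ripk1 and Dffa). Each of the 36 had a probe and passed the filter on dim probes, which asked that the scanner software call the spot well above background on 2 or more of the 6 arrays. They were covered by 70 probes, of which 68 passed.

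Apoptosis is the programmed death of a cell. In its mitochondrial branch, BH3-only proteins relay stress signals, guardians of the Bcl2 family hold the effectors Bax and Bak1 in check, and effectors that escape them open the outer mitochondrial membrane. Cytochrome c then leaves the mitochondria and assembles with Apaf1 into the apoptosome, which starts the caspase cascade, while inhibitor of apoptosis proteins restrain caspases. In a parallel branch, death receptors such as Fas recruit Fadd and caspase-8, and Cflar blocks that step. Migrating and early gonadal germ cells depend on Bcl2-family balance for survival, and germ cells that stray from their path are removed by Bax-dependent death.

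RNA came from male mouse primordial germ cells made in culture from embryonic stem cells carrying an Oct4-GFP transgene, on a C57BL/6 129SV mixed background. Dazl is a germ cell gene for an RNA-binding protein, and the cells carried a vector that knocks it down (hairpin 1 or hairpin 2) or a control; every vector, the control included, also expressed tdTomato. After 9 or 12 days of differentiation the cells positive for both colours were sorted, so each sample is a bulk population defined by a reporter and a vector marker. Each day had 1 control, 1 hairpin 1 and 1 hairpin 2 sample, with 1 array each (Agilent 1-colour, 6 arrays in all). The scanner files number the hairpins otherwise than the sample titles do, in the same order at both days; the numbers used here are those of the titles. Separate cultures are not stated in the labels, so the spread behind each p-value may be technical. All 3 arrays of a day shared a slide, and the effects of slide and day cannot be told apart.

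Levels below are log2 signal minus the array's 75th percentile, a scale on which a gene is compared with itself across arrays and not with another gene. Sets of 3 levels follow the order control, hairpin 1, hairpin 2. The 75th percentile was at a signal of 629 to 745, and each array had 70.3% to 73.3% of its probes well above background. Dazl itself differed by -4.30 log2 units in the knockdown (limma, SE 0.28), with every knockdown array below both control arrays. Of the 13 germ cell markers tested, 10 were lower in the knockdown, with Dazl, the target of the hairpins, among them. The 13 together summed to 226 to 289 on the control arrays and 141 to 249.8 on the knockdown arrays, in units of each array's 75th percentile. Stra8, a gene of germ cells entering meiosis, gave most of that sum (143 to 206 in control, 57.4 to 175 in knockdown). The other 12 markers, which include Dazl, summed to 83.2 to 83.6 in control and 74.6 to 83.6 in knockdown. Pou5f1, which encodes the Oct4 of the sorting reporter (named here after its values were seen), was higher in all 4 pairs (0.70, SE 0.15, unadjusted p 0.00381, adjusted p 0.275, limma). Endoderm markers were higher for 12 of 13 (sum 3.34 to 3.38 in control, 5.07 to 6.32 in knockdown, with Ttr and Alb not past the filter) and fibroblast markers for 12 of 12 (9.08 to 16.8 against 11.5 to 21.6). Neural markers summed to 4.42 to 4.66 against 5.81 to 7.26, and endothelial markers to 0.96 to 1.32 against 0.90 to 1.57. Blood markers summed to 2.65 to 3.85 against 3.19 to 4.54 (Ptprc, Spi1 and Itgam not past the filter). Cd68 gave most of the blood sum (2.27 to 3.47 in control, 2.94 to 4.27 in knockdown). The other 4 blood markers went the other way, with sums of 0.37 to 0.38 in control and 0.24 to 0.32 in knockdown. In bulk RNA, fewer cells of a type and less RNA per cell cannot be told apart, and the part of these markers in the values below was not tested.

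The knockdown was compared with the control over 4 knockdown and 2 control arrays, with day as a term, to ask what the loss of Dazl does to the cells' death genes. No apoptosis gene passed the threshold of an adjusted p of 0.05 (limma, Benjamini-Hochberg over all genes); the share of all genes past it was 0%. A second fit gave each vector its own term (called the vector as a replicate block below). Arrays of the same vector then counted as replicates, and the spread between hairpins left the error. By that fit 20 of all genes and 0 members passed, but it does not measure the spread between vectors. In the first fit, at an unadjusted p of 0.05, 1 of the 36 was lower (Xiap) and 0 were higher. Beside them, 4.84% of all genes were lower and 5.11% higher (2013 of 20236 in all). The 36 fitted differences ran from -0.45 (Trp53) to 0.51 (Pmaip1), with a median of -0.08 beside -0.00 over all genes. Of the 36, 23 were lower and 13 higher, beside 50.2% of all genes lower. Below 0 lay 18 of the 25 pro-death genes and 5 of the 9 pro-survival genes, with medians of -0.11 and -0.08. Taken by day, 16 of the 25 pro-death genes were lower at day 9 (median -0.14, beside 52.7% of all genes lower) and 11 were lower and 14 higher at day 12 (median 0.00, beside 48.5%). Neither side was tested as a set.

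The fitted intervals were narrow for most of these genes, but the fit takes all arrays as independent although arrays of both days share a vector. They may not cover the spread between separate cultures. For 34 of the 36 (94.4%), the unadjusted 95% interval of the difference lay wholly within 1 log2 unit of 0, against 82.2% of all genes tested. Pmaip1 and Birc3 were the exceptions, with intervals of -0.01 to 1.02 and -1.02 to 0.29. Member by member, the 4 pairs of a knockdown array with the control of its day spread widely around small means.

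**Figure D1:**
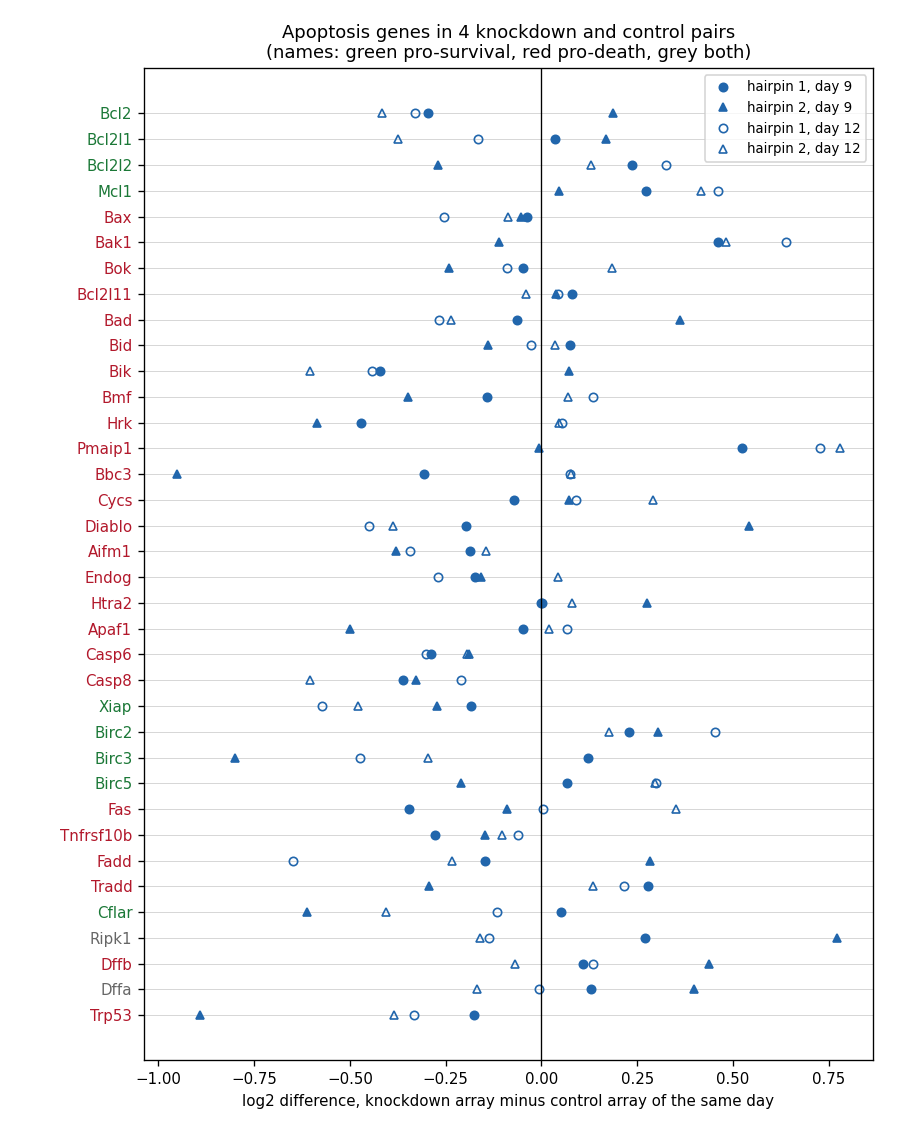
Log2 difference of each knockdown array from the control array of the same day (x axis) for the 36 apoptosis genes (y axis, in order of role), with circles for hairpin 1, triangles for hairpin 2, filled for day 9 and open for day 12. The points of most genes fall on both sides of 0; 7 genes have all 4 points below 0 and 2 genes, Mcl1 and Birc2, have all 4 above.

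The guardians bind and silence pro-death relatives. Mcl1, a guardian with a short-lived protein, had levels of 5.56, 5.83 and 5.61 at day 9 and of 5.15, 5.61 and 5.56 at day 12. Every knockdown array lay above both controls, but hairpin 2 at day 12 and the control of day 9 both read 5.56, and at day 9 the hairpin 2 array exceeded its control by only 0.04. The fitted difference was 0.30 (0.16 without the control of day 12 and 0.44 without that of day 9; SE 0.15, unadjusted p 0.094, adjusted p 0.574, limma), and the second Mcl1 probe, a dimmer one on the same transcript, differed the other way by -0.16 (SE 0.15).

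Bcl2, the founding guardian, stood at -2.32, -2.62 and -2.13 at day 9 and at -2.28, -2.61 and -2.70 at day 12. It was lower than its control in 3 pairs and higher in the hairpin 2 pair of day 9, with a fitted difference of -0.21 (SE 0.19). Without the control of day 12 it was -0.05, and without that of day 9 -0.37. Its other 2 probes also differed downward, by -0.29 and -0.50.

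Bcl2l1 encodes Bcl-xL, the guardian that keeps early germ cells alive. Its levels were -0.85, -0.81 and -0.68 at day 9 and -0.78, -0.94 and -1.15 at day 12. Both knockdown arrays were above the control at day 9 and both below it at day 12. The guardian Bcl2l2 (Bcl-w) had levels of 0.51, 0.75 and 0.24 at day 9 and 0.45, 0.77 and 0.58 at day 12; of the 4 knockdown arrays, hairpin 2 at day 9 alone lay below the controls. Their fitted differences were -0.08 (SE 0.16) and 0.11 (SE 0.19).

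The effectors form the pores. Bax, measured on 10 spots per array with a spot SD of at most 0.05, stood at 3.37, 3.33 and 3.32 at day 9 and at 3.62, 3.37 and 3.54 at day 12. It was lower in all 4 pairs, with differences of -0.25 to -0.04, and the fitted difference was -0.11 (SE 0.14, 95% interval -0.44 to 0.22), or -0.05 without the control of day 12 and -0.17 without that of day 9.

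Bak1, the partner effector, had levels of 1.37, 1.83 and 1.26 at day 9 and 1.35, 1.98 and 1.83 at day 12. It was higher in 3 pairs by 0.46 to 0.64 and differed by -0.11 in the hairpin 2 pair of day 9, so that the groups overlapped (0.37, SE 0.21, adjusted p 0.623). Without the control of day 12 the difference was 0.18, and without that of day 9 it was 0.56. Bok, a Bax relative that works apart from the guardians, stood at 2.37, 2.32 and 2.13 at day 9 and at 2.27, 2.18 and 2.45 at day 12, with no order between the groups and a fitted difference of -0.05 (SE 0.16).

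BH3-only proteins are the sensors upstream of the effectors. Pmaip1 (Noxa), which binds Mcl1 and is a p53 target, stood at 3.90, 4.43 and 3.90 at day 9 and at 3.61, 4.33 and 4.39 at day 12. It was higher in 3 of the 4 pairs by 0.52 to 0.78, while hairpin 2 at day 9 differed from its control by -0.01. The fitted difference of 0.51 (SE 0.21, unadjusted p 0.0528, adjusted p 0.509) was the highest of the 36.

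Of the other BH3-only genes, Bik, a BH3-only protein of the endoplasmic reticulum, differed by -0.35 (SE 0.19) and was lower in 3 pairs. Bbc3 (Puma), a p53 target, differed by -0.28 (SE 0.25), with hairpin 2 at day 9 apart from the rest: its level of 4.32 stood below 4.88 to 4.97 on the other knockdown arrays. Bcl2l11 (Bim), Bad, Bid and Bmf had fitted differences between -0.07 and 0.03, and Hrk had -0.24 (SE 0.18). At day 9 Hrk differed from its control by -0.47 with hairpin 1 and -0.58 with hairpin 2, and at day 12 by 0.05 with both. Its probe was dim, with signals of 7.68 to 13.3 units.

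Of the proteins released by mitochondria, Aifm1 (apoptosis-inducing factor, a flavoprotein) was lower in all 4 pairs, with every knockdown array below both controls (2.31 to 2.54 against 2.68 and 2.69) and a fitted difference of -0.26 (SE 0.14, unadjusted p 0.117, adjusted p 0.611). Its other probe differed by -0.23. Cycs (cytochrome c) differed by 0.10 (SE 0.15), Htra2 (a serine protease) by 0.09 (SE 0.15), Diablo (Smac, which displaces inhibitors from caspases) by -0.12 (SE 0.26) and Endog (a nuclease) by -0.14 (SE 0.15).

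The apoptosome gene Apaf1 and both caspases were below 0. Casp8, the initiator caspase of death receptors, stood at -1.68, -2.04 and -2.01 at day 9 and at -1.29, -1.50 and -1.90 at day 12. Each knockdown array was below its own control, though the control of day 9 lay below the hairpin 1 array of day 12, and the difference was -0.38 (SE 0.16, unadjusted p 0.0583, adjusted p 0.518). Casp6, an executioner caspase, was lower in all 4 pairs, by -0.30 to -0.19, with all 4 knockdown arrays (2.96 to 3.23) below both controls (3.24 and 3.43) and a fitted difference of -0.24 (SE 0.13). Apaf1 differed by -0.12 (SE 0.18).

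Xiap, the inhibitor of apoptosis protein that binds caspases most directly, gave the smallest p of the 36. It stood at -1.98, -2.16 and -2.25 at day 9 and at -1.95, -2.52 and -2.43 at day 12, so all 4 knockdown arrays were below both controls. The fitted difference was -0.38 (SE 0.14, unadjusted p 0.0396, adjusted p 0.468, limma). With the vector as a replicate block the unadjusted p was 0.0503, and the difference was -0.23 without the control of day 12 and -0.53 without that of day 9. The second Xiap probe past the filter gave -0.33 (SE 0.15). Another Xiap probe was not well above background on any array.

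The other inhibitors lay on both sides of 0. Birc2 (cIAP1), a ubiquitin ligase of the TNF receptor pathway, was higher in all 4 pairs by 0.18 to 0.45, with a difference of 0.29 (SE 0.15, adjusted p 0.573). Its neighbour Birc3 (cIAP2) was lower in 3 pairs and differed by -0.36 (SE 0.27). Birc5 (survivin), which also serves cell division, differed by 0.11 (SE 0.16).

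Among death receptor genes, Tnfrsf10b, which encodes the mouse TRAIL receptor, was below both controls on all 4 knockdown arrays (-0.46 to -0.32 against -0.26 and -0.18), by -0.15 (SE 0.13). Fas differed by -0.02 (SE 0.18), Fadd by -0.19 (SE 0.22), Tradd by 0.08 (SE 0.20), the brake Cflar by -0.27 (SE 0.22) and the kinase Ripk1 by 0.19 (SE 0.22). The DNA-cutting nuclease Dffb and its inhibitor Dffa differed by 0.15 (SE 0.17) and 0.09 (SE 0.17).

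Trp53, the tumour suppressor whose protein induces Bax, Bbc3 and Pmaip1, had the lowest fitted difference. Its 10-spot probe stood at 0.32, 0.15 and -0.57 at day 9 and at 0.25, -0.09 and -0.14 at day 12. All 4 knockdown arrays were below both controls, with hairpin 2 at day 9 furthest, and the difference was -0.45 (SE 0.22, unadjusted p 0.0917, adjusted p 0.572). The other Trp53 probe, on the same transcript, gave 0.18 (SE 0.15), so the direction depends on the probe.

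**Figure D2:**
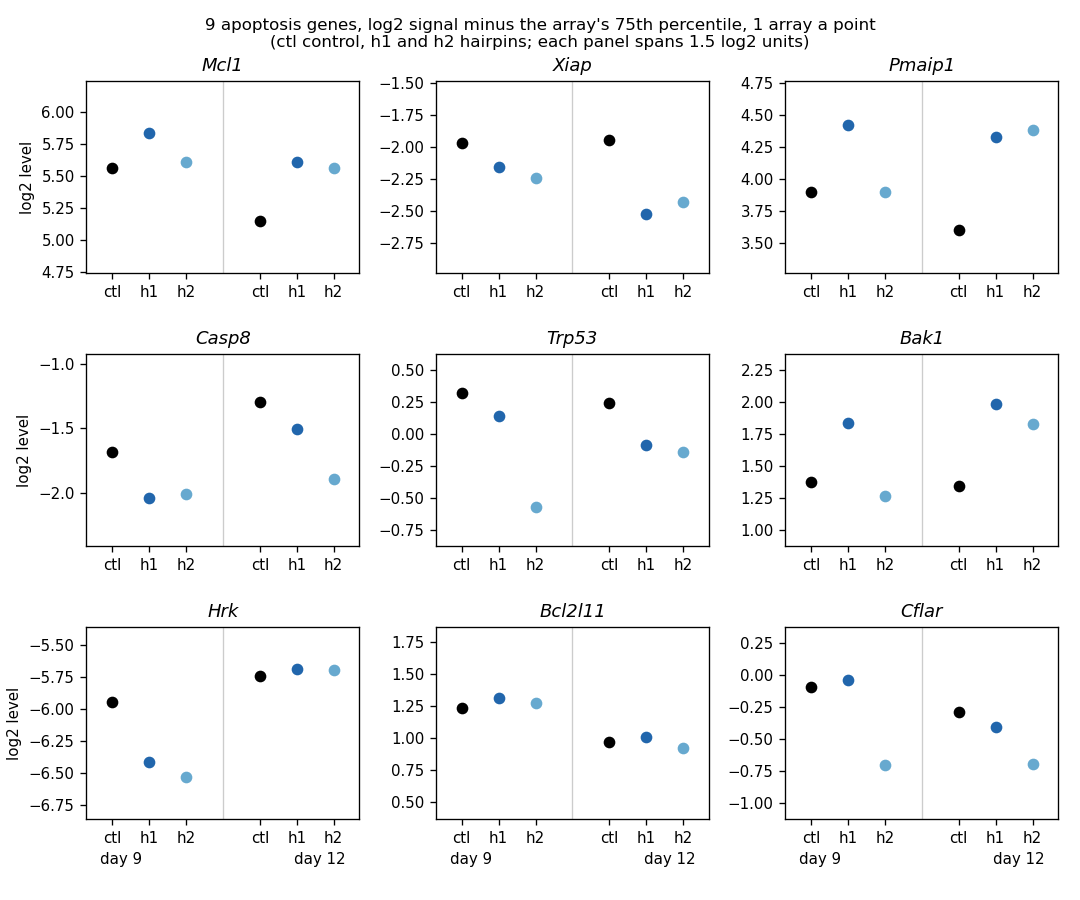
Level of 9 apoptosis genes on each of the 6 arrays (y axis, log2 signal minus the array's 75th percentile; x axis, control in black, hairpin 1 in dark blue and hairpin 2 in light blue, day 9 left and day 12 right). Every panel spans 1.5 log2 units; the knockdown points of Xiap and Trp53 lie below both control points, those of Mcl1 lie above or level with the higher control, and those of Pmaip1 and Bak1 are higher on 3 arrays and level with or below the control on the hairpin 2 array of day 9.

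Direction was also counted array by array. Of the 36, 7 were lower in all 4 pairs (Bax, Aifm1, Casp6, Casp8, Xiap, Tnfrsf10b and Trp53), a share of 19.4% beside 17% of all genes. Higher in all 4 pairs were 2 (Mcl1 and Birc2), 5.56% beside 16.3%. All 4 knockdown arrays lay below both controls for 5 genes (Aifm1, Casp6, Xiap, Tnfrsf10b and Trp53), 13.9% beside 10.3%, and above both for Mcl1 alone, 2.78% beside 9.47%.

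The 4 members on chromosome 1 (Bcl2, Bok, Casp8 and Cflar) were all lower in the knockdown. On that chromosome 661 of 913 genes were lower (72.4%), with a median of -0.18. On the X chromosome both members (Aifm1 and Xiap) were lower, as were 56.9% of 561 genes. Over the remaining chromosomes 17 of 30 members and 48.8% of genes were lower. The part of chromosome position in the members' values was not tested.

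Where a gene had several probes, the brightest stood for it, and 20 members had more than 1 past the filter. All probes gave the same sign of the knockdown difference in 11 of the 20 and not in the other 9 (Apaf1, Bad, Bcl2l1, Bcl2l11, Bcl2l2, Dffa, Mcl1, Ripk1 and Trp53). For Apaf1 the 3 probes gave -0.12, 0.30 and -0.57. The 5 Cflar probes all gave values below 0, from -0.59 to -0.18, and the probe at -0.59 was well above background on only 2 arrays.

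**Figure D3:**
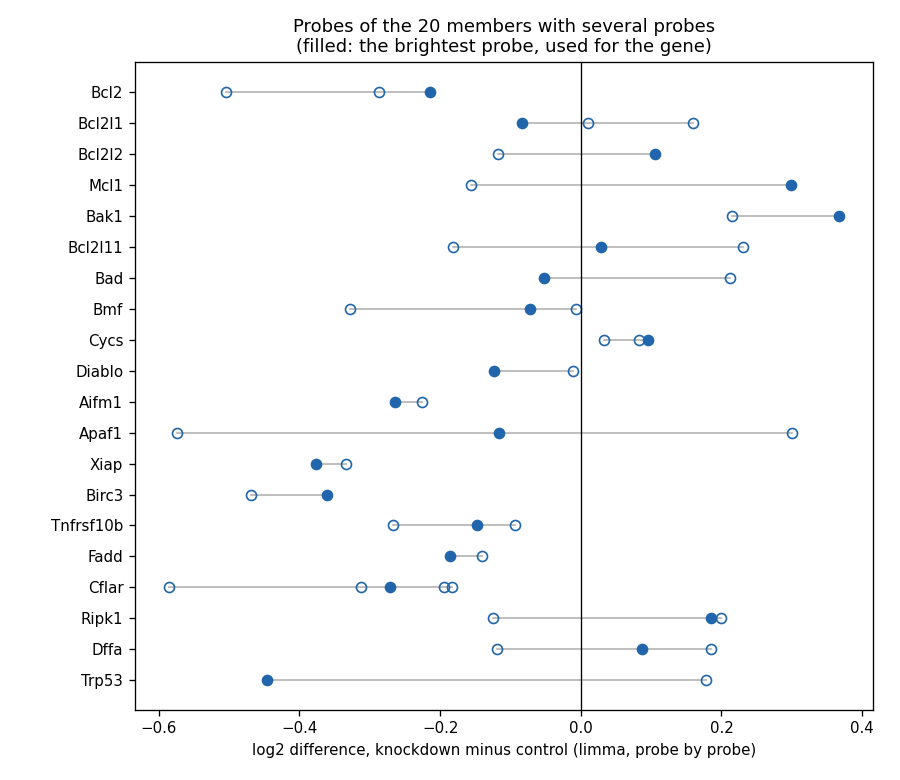
Knockdown minus control difference of every probe past the filter (x axis, log2, limma) for the 20 members with several probes (y axis); the filled point is the brightest probe, which stands for the gene. The probes of Xiap, Aifm1 and Cycs lie close together, whereas those of Mcl1, Trp53 and Apaf1 lie on both sides of 0.

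Day 12 was compared with day 9 over 3 arrays each, with knockdown as a term. No member passed the adjusted threshold (limma, Benjamini-Hochberg), which 0.148% of all genes did; with the vector as a replicate block it was 329 genes and 0 members. At an unadjusted p of 0.05, Hrk was higher and Bcl2l11 lower at day 12, beside 7.26% of all genes higher and 4.78% lower; with the replicate block Hrk alone remained. The 36 differences had a median of 0.03, with 22 higher and 14 lower (49.6% of all genes were lower), and all 36 intervals lay within 1 log2 unit of 0. Pro-death genes were higher at day 12 for 19 of 25 and pro-survival genes lower for 6 of 9, with medians of 0.07 and -0.18. Within single vectors the pro-death count was 13 of 25 in the control, 17 with hairpin 1 and 19 with hairpin 2. Of all genes, 9601 of 20234, 9730 of 20235 and 11226 of 20219 were higher at day 12 in the same order. The hairpin 2 count uses the day 9 array that is described below as apart. The pro-survival count was 5, 6 and 5 of 9, and neither side was tested as a set. In 13 of the 20 members with several probes, those probes differed in the sign of the day difference.

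Hrk (Harakiri), a BH3-only gene known from neurons, stood at -5.95, -6.42 and -6.53 at day 9 and at -5.74, -5.69 and -5.69 at day 12. All day 12 arrays were above all day 9 arrays, as for 8.94% of all genes. The difference was 0.59 (SE 0.17, unadjusted p 0.0117, adjusted p 0.247), but the signals were only 7.68 to 13.3 units, and with another background correction the difference was -0.27.

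Bcl2l11, which encodes Bim, the BH3-only protein that binds all guardians, stood at 1.23, 1.31 and 1.27 at day 9 and at 0.97, 1.01 and 0.93 at day 12. The day 12 arrays were all below the day 9 arrays, as for 8.13% of all genes, with signals of 1210 to 1800. The difference was -0.30 (SE 0.12, unadjusted p 0.0462, adjusted p 0.404; unadjusted p 0.0577 with the replicate block), and it was -0.27, -0.30 and -0.34 within the control, hairpin 1 and hairpin 2 vectors. Its 2 other probes gave 0.00 and -0.07.

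**Figure D4:**
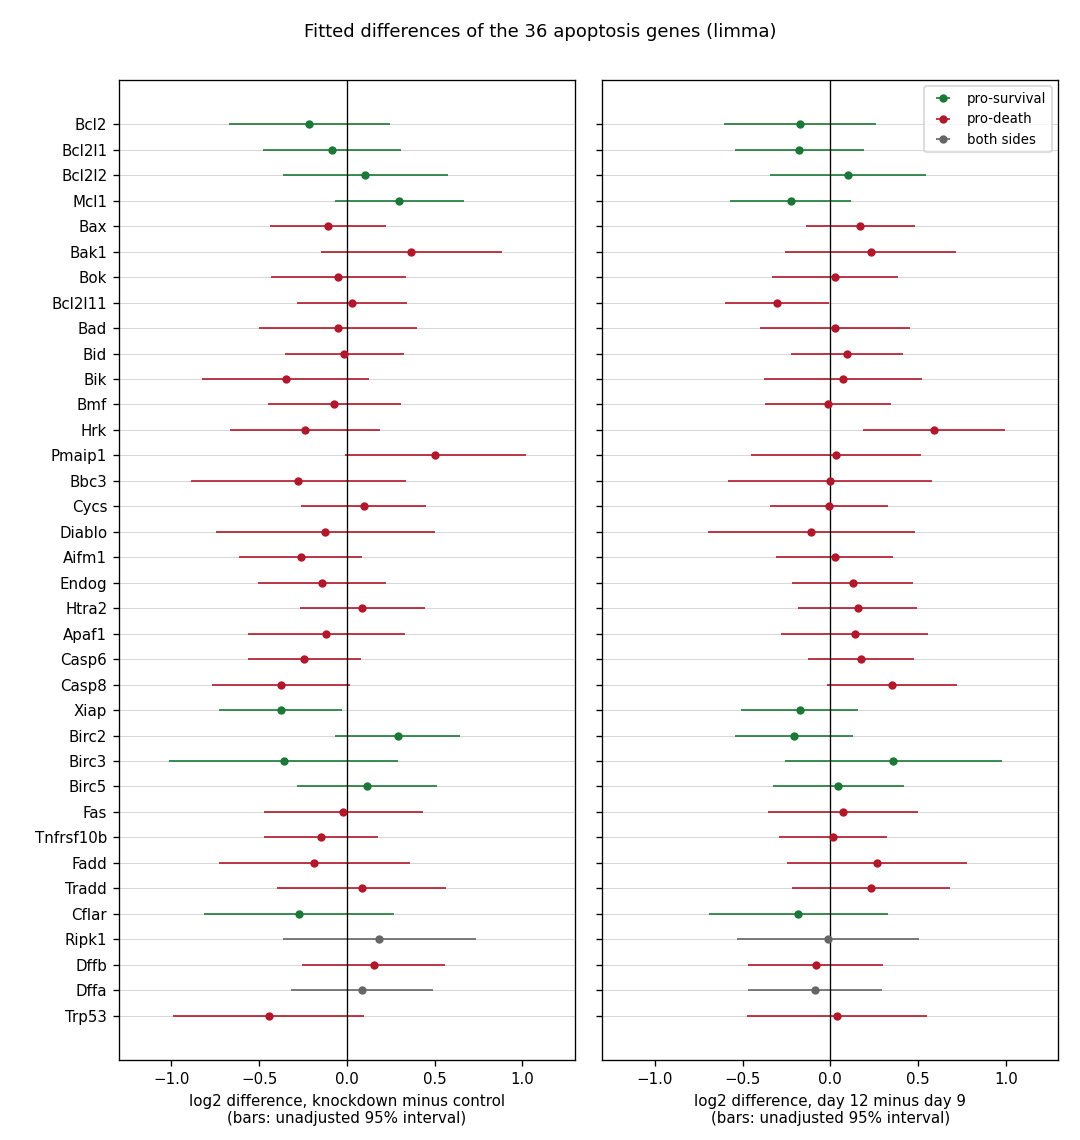
Fitted log2 differences of the 36 genes (y axis) for knockdown minus control (left) and day 12 minus day 9 (right), with bars for the unadjusted 95% interval; green marks pro-survival, red pro-death and grey genes on both sides. Only Xiap (left) and Hrk and Bcl2l11 (right) have intervals that leave out 0, none of them at an adjusted p of 0.05, and no interval reaches beyond 1.02 in size.

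The knockdown effect was also taken at each day, with 2 knockdown arrays against 1 control, the lone control being assumed to vary like the knockdown pairs. Each of those pairs is 1 array of either hairpin, so the error holds any difference between hairpins. No member passed at an adjusted p of 0.05 at either day, as no gene of all did (0%). At an unadjusted p of 0.05 it was 0 of 36 at both days, beside 4.31% of all genes at day 9 and 5.08% at day 12. These counts say little about stability: without hairpin 1 of day 9 it was 6 members at day 9, beside 20.6% of all genes, and without either hairpin of day 9 it was 4 at day 12, beside 10.7%. The smallest p at day 9 was that of Hrk (-0.53, SE 0.22), on signals of only 7.68 to 10.2 units. At day 12 it was that of Pmaip1 (0.75, SE 0.30).

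The difference between the days' effects passed for no member at an unadjusted p of 0.05, beside 1.72% of all genes, and for no gene after adjustment. Both knockdown arrays lay on one side of their control at day 9 and on the other side at day 12 in 8 members (Bcl2l1, Bmf, Hrk, Bbc3, Apaf1, Fas, Ripk1 and Dffa), 22.2% beside 13.9% of all genes. Both pairs of a day share its control array, so a shift of that array alone would move both. For Ripk1 the control changed by 0.43 between the days and hairpin 1 by 0.03, while hairpin 2 changed by -0.50. The smallest p was that of Hrk (0.58, SE 0.31, 95% interval -0.22 to 1.38, unadjusted p 0.124), and only 9 of the 36 intervals lay within 1 log2 unit of 0, so differences of that size between days could not be bounded here.

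The hairpins were compared with each other over 2 arrays each. After adjustment 0.0692% of all genes and 0 members differed (limma, Benjamini-Hochberg). At an unadjusted p of 0.05, Cflar was lower with hairpin 2 and no member was higher, beside 5.43% and 6.25% of all genes. Cflar (c-FLIP), the blocker of caspase-8 at the receptor, stood at -0.04 and -0.70 with hairpin 1 and hairpin 2 at day 9 and at -0.40 and -0.69 at day 12. The difference was -0.48 (SE 0.18, unadjusted p 0.0361, adjusted p 0.393). That is the brightest Cflar probe. The other Cflar probes gave smaller differences the same way, from -0.32 to -0.095 (limma, unadjusted p 0.204 to 0.601). The 36 differences split into 18 higher and 18 lower, with a median of -0.02.

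Genes of the same pathways outside the 36 were read from lists. Of 13 other Bcl2-family genes, 11 other caspase and inhibitor genes and 15 other death receptor genes tested, none had an unadjusted p under 0.05 in the knockdown contrast, and the medians were 0.00, -0.03 and 0.04. The smallest p values belonged to Bnip2 (-0.22), Naip1 (0.58) and Tnfrsf1b (0.45). Of 23 p53 pathway genes, 2 were higher and 1 lower at that level, beside 5.11% and 4.84% of all genes, and none after adjustment, with a median of 0.02. The 3 were Sesn1 (0.45, SE 0.13, unadjusted p 0.0129), a stress-response gene, Zmat3 (0.38, SE 0.14, unadjusted p 0.0383), a p53 target that binds RNA, and Btg2 (-0.37, SE 0.13, unadjusted p 0.0279), a p53 target that restrains growth.

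Sesn1 stood at 2.31 and 2.19 on the control arrays and between 2.56 and 2.80 on the knockdown arrays, and Btg2 at 1.95 and 1.77 against 1.43 to 1.55. Neither pair of ranges overlapped. Of all genes, 9.47% had all knockdown arrays above both controls and 10.3% had all of them below. Between the days, Bcl2l10 (0.71, unadjusted p 0.0296), Naip5 (0.89, unadjusted p 0.0193), Casp1 (0.86, unadjusted p 0.0437) and Tnfrsf23 (0.77, unadjusted p 0.0186) were higher at day 12 and Gtse1 (-0.54, unadjusted p 0.0128) was lower, beside 7.26% and 4.78% of all genes, and none of them after adjustment. For Casp1 the day difference pools control and knockdown arrays that did not change alike. Its knockdown difference was -1.35 at day 9, against 1 control array, and the effect at day 12 minus that at day 9 was 1.56.

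**Figure D5:**
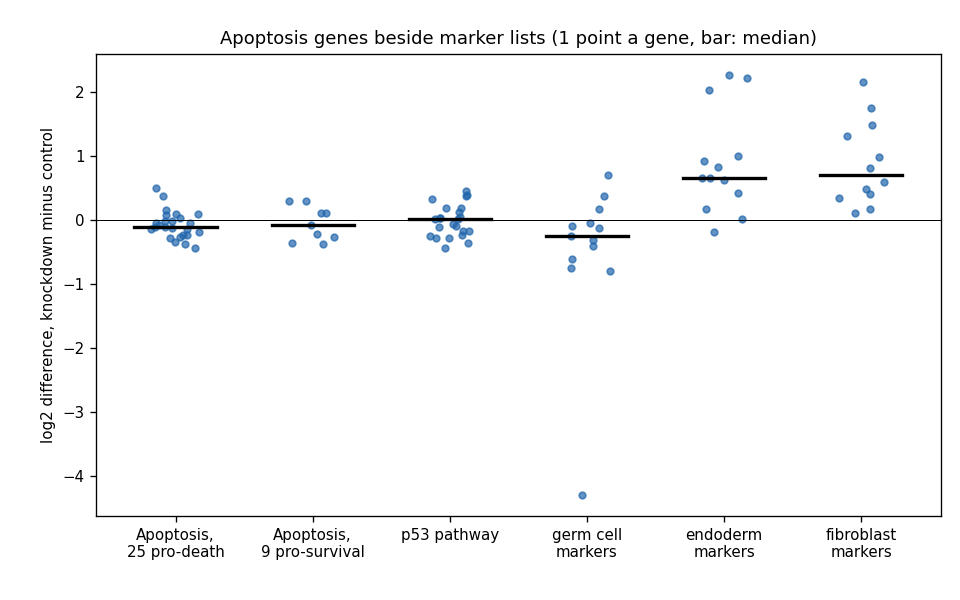
Knockdown minus control difference (y axis, log2) of each gene, 1 point a gene with the median as a bar, for the pro-death and pro-survival apoptosis genes, the p53 pathway list and germ cell, endoderm and fibroblast markers. The apoptosis genes lie between -0.45 and 0.51, while endoderm and fibroblast markers reach above 2 and Dazl, among the germ cell markers, lies at -4.30.

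By each gene's brightest probe, the hairpin 2 array of day 9 stood apart from the other knockdown arrays in 7 of the 36 genes, beside 1384 of 20218 genes. Where 1 of the 4 knockdown arrays stood apart, it was this array in 77.8% of such members and in 75.5% of such genes over all. Without it, 8 members had an unadjusted p under 0.05 in the knockdown contrast, beside 17.5% of all genes, and none after adjustment. They were Pmaip1 (0.65, SE 0.11, unadjusted p 0.00288), Bak1 (0.52, SE 0.11), Bik (-0.48, SE 0.11), Mcl1 (0.37, SE 0.10), Bcl2 (-0.34, SE 0.10), Xiap (-0.38, SE 0.13), Diablo (-0.32, SE 0.11) and Trp53 (-0.28, SE 0.10). The adjusted p of these 8 ran from 0.168 to 0.286 (limma, Benjamini-Hochberg). The array left out is the one found apart in these same data, so a narrower spread follows from that choice. In the fit of all arrays, the other probes of Mcl1 and Trp53 differed the other way (-0.16 and 0.18).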

How the data were processed

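Total RNA from 6 sorted samples was hybridised to Agilent 1-colour whole-genome arrays, 1 array per sample. Per the file headers, each deposited scanner file held spot intensity values after background subtraction, not normalized across arrays. Values in the authors' processed table were a ratio, namely each array's signal over a constant of that array, as tested on the values. A deposited quality score per spot served only to match the 41529 entries of that table to spots. The steps that made that score are not given in the sources used here.

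Intensities were taken to log2 and centred on each array's 75th percentile. Probes called well above background on 2 or more arrays were kept, and the brightest probe stood for a gene. The limma package (3.58.1, R 4.3.3) fitted linear models across 20236 genes, two-sided, with Benjamini-Hochberg adjustment over all of them and a threshold of 0.05. The fitting code was tested on simulated data. The number of arrays limits the precision.

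The members and lists were chosen with earlier results of these data known. All 36 members are described by role. Per-array values are given for guardians, effectors and members with an unadjusted p under 0.05, and for other members after their values were seen. From each pathway list, up to 3 genes of smallest p were named, together with those past an unadjusted 0.05. Germ cell, endoderm, fibroblast, blood, endothelium and neural markers were read by counts and sums.

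Vectors pair the arrays across days: deviations of same-vector arrays from their day's mean correlated at 0.38, 0.54 and 0.26 across genes. With the vector as a replicate block (each vector its own fixed term) no member passed the adjusted threshold. For the knockdown, itself a difference between vectors, that fit leaves the spread between hairpins out of the error. Alternatives were background correction, normalization, filter, probe rule, the authors' table, the variance prior and leaving out each array.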

Additional observations from a re-analysis of the deposited data

Results flagged for a closer look

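In 9 of the 36 genes (25%, beside 9.06% of all genes) 1 of the 4 knockdown arrays stood far from the other 3 by Dixon's criterion. The criterion marks about 1 group in 20 among independent replicates. These 4 arrays are 2 hairpins at 2 days, so that rate does not apply to them. In 7 of the 9 it was hairpin 2 at day 9. That array stood high for Bcl2 (-2.13, the other knockdown arrays down to -2.70), Diablo (2.50, the lowest 1.76) and Ripk1 (-2.60, the lowest -3.10). It stood low for Bbc3 (4.32, the highest 4.97), Apaf1 (0.42, the highest 0.91), Birc5 (5.28, the highest 5.59) and Tradd (2.11, the highest 2.73). These are values of each gene's brightest probe. The other Diablo probe was instead lowest on that array (-1.93, the other knockdown arrays -1.28 to -0.98). The other probes of Bcl2 and Apaf1 were split, and those of Ripk1 were also highest there. Mcl1 was high with hairpin 1 at day 9 (5.83, the lowest 5.56) and Endog with hairpin 2 at day 12 (1.49, the lowest 1.18). The part of that array in these values was not tested beyond leaving it out.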

How the results depend on the processing

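No member reached an adjusted p under 0.05 in any comparison under any alternative run (limma, Benjamini-Hochberg). Counts of members at an unadjusted p under 0.05 are small and moved with the setting. In the knockdown comparison (1 member) it was 0 with normexp background correction. It was 2 with quantile normalization, with the strict filter, with the authors' table and with a trended, robust variance prior. Beside those 2 stood 10.1% to 10.9% of all genes, and Pmaip1 was among the 2 each time. With median scaling the 1 member was Pmaip1 in place of Xiap, beside 10.4% of all genes. In the day comparison (2) it was 0 with normexp, and 1 without a filter on dim probes, with the mean of a gene's probes and with a replicate block for the vector. The shares of all genes beside that 1 were 10.2%, 11.9% and 15.2%. The knockdown effect at day 12 rests on 1 control array, so for these settings only sizes are given. Pmaip1 differed by 0.68 to 0.79 with quantile normalization, median scaling, the strict filter, the authors' table and the variance prior. Mcl1 differed by 0.44 with the variance prior and Birc3 by -0.77 with the mean of probes. The members named had the smallest p in each setting. Between the hairpins (1) the count of members was 3 with normexp, beside 24% of all genes, and 0 without a filter and with the mean of probes. With the replicate block the knockdown comparison had 1 member, Pmaip1 (limma, unadjusted p 0.0465), beside 13.3% of all genes. Medians over the 36 stayed near 0: the knockdown median was -0.037 with the authors' table. At day 12 it was -0.0090 with normexp, -0.010 with median scaling, -0.031 with quantile normalization, -0.070 with the mean of probes and -0.023 with the authors' table, and between the hairpins 0.012 with normexp, 0.0054 with the mean of probes and -0.042 with the authors' table. Normexp also shifted the median of all genes between the hairpins to 0.17. Reversed signs were those of Hrk between the days with normexp (-0.27), of Bok between the days with median scaling (-0.025) and the authors' table (-0.041), and of Bcl2l1 (0.029) and Bcl2l2 (-0.0063) in the knockdown with the mean of probes; the cause was not tested. Leaving out each array gave 0 to 8 members at an unadjusted p under 0.05 for the knockdown (8 without hairpin 2 of day 9), 0 to 3 for the days (3 without hairpin 2 of day 9), 0 to 6 for the knockdown effect at day 9 (6 without hairpin 1 of day 9), 0 to 4 for that at day 12 (4 without either hairpin of day 9), 0 to 4 for the difference between the days (4 without hairpin 1 of day 9) and 0 to 14 between the hairpins (14 without hairpin 2 of day 12, when 33% of all genes passed too). The medians then ran from -0.11 to -0.041 for the knockdown, 0.012 to 0.098 for the days, -0.13 to -0.048 at day 9, -0.055 to -0.041 at day 12, -0.051 to 0.091 for the difference and -0.036 to 0.0021 between the hairpins. Signs changed in these runs for Bcl2l1 (-0.27 to 0.10), Bcl2l2 (-0.016 to 0.23) and Bok (-0.14 to 0.048) in the knockdown, and for Bcl2l2 (-0.068 to 0.22) and Bok (-0.070 to 0.090) between the days. The shares of all genes at an unadjusted p under 0.05 moved as well. Without hairpin 2 of day 9 they were 17.5% for the knockdown and 16.5% for the days. Where a run left a lone array in a group, it was assumed to vary like the others. Differences near the size of the SE, and dim probes such as that of Hrk, are what the signal over background and the number of arrays limit.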
